A study of Mus musculus with 4 samples.

Results

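The Hoxb genes form 1 of the 4 mammalian Hox clusters, and their RNA was followed here in mouse embryonic fibroblasts (MEFs) labelled as lacking Mll1 and in wild-type MEFs. The cluster was taken as 10 listed genes, and 9 of them could be matched to a transcript entry among 16612 named genes in the deposited table, where the entry with the highest mean level stood for each gene. Hoxb13 was not matched and is not analysed here. The 4 groups were Mll1-/- cells given TNF, the inflammatory cytokine tumour necrosis factor alpha, for 4 hr, Mll1-/- cells given control solution, wild-type (Mll1+/+) cells given TNF in the same way, and wild-type cells given control solution. The dose was 10 ng/ml per the design text, and the treatment label gives the same figure in another unit. Cells from 3 separate treatments were pooled before sequencing, so each group is 1 library, and no spread between replicates, p-value or test is given. All cells were MEFs grown in DMEM with serum. The labels do not say how many embryos or clones stand behind either genotype, which part of Mll1 is missing, or from which part of the embryo the cells came.

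Hox genes encode homeodomain transcription factors that give cells their position along the head-to-tail axis. Their order on the chromosome matches the order of their expression domains, with Hoxb1 at the end active in the hindbrain and Hoxb9 and Hoxb13 at the end active in the trunk and tail, and cultured fibroblasts keep a Hox pattern of the place they came from. Mll1, now named Kmt2a, is a histone H3 lysine 4 methyltransferase of the trithorax group that keeps Hox genes active in the embryo, while Polycomb proteins keep them silent.

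RPKM divides a transcript's reads by its length and by the size of its library, so it can be compared between genes as a level per length. The library totals used here were inferred from the RPKM values and transcript lengths. They were 19306506 reads for Mll1-/- with TNF, 20081869 for the Mll1-/- control, 27977248 for wild type with TNF and 27728647 for the wild-type control. The targeted gene, Kmt2a, stood at 1.66 RPKM in Mll1-/- with TNF, 2.02 in the Mll1-/- control, 2.11 in wild type with TNF and 1.85 in the wild-type control. This value covers the whole transcript, so it does not show whether a part of the gene is missing, and every direction below is between libraries labelled Mll1-/- and libraries labelled wild type. Of 11 fibroblast markers 9 had an entry, and their summed level was between 4285 and 5568 RPKM, mostly from Vim and S100a4. Dcn and Col3a1, 2 genes of the fibroblast matrix, were at 15.2 and 23.5 RPKM in Mll1-/- with TNF and at 9.16 and 28.1 in the Mll1-/- control. Dcn was listed at 0 in both wild-type libraries, and Col3a1 was at 0.296 RPKM in wild type with TNF and 0.531 in the wild-type control. An entry was found for 5 of 6 epithelial, 3 of 7 blood and 4 of 4 endothelial markers. The markers with an entry summed to at most 1.04 RPKM per list in any library, and those without one could not be judged.

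Sequences of the locus are given first for what they let a reader see about the genes described below. Promoters run from 250 bases before the start of the transcript to 50 bases after it, as RefSeq gives them on GRCm38.p6, and were held for 3 of the 10 genes. Mll1 binds unmethylated CG dinucleotides through its CXXC domain, so capitals mark each CG. Hoxb8 lies at chr11:96281655-96281954, Hoxb4 at chr11:96318017-96318316 and Hoxb1 at chr11:96365508-96365807, all on the plus strand. These 3 are shown because they were the ones held, not for their levels. Hoxb8 was lower and Hoxb4 higher in the Mll1-/- libraries, while Hoxb1 was near the limit of detection in all 4.
Hoxb8: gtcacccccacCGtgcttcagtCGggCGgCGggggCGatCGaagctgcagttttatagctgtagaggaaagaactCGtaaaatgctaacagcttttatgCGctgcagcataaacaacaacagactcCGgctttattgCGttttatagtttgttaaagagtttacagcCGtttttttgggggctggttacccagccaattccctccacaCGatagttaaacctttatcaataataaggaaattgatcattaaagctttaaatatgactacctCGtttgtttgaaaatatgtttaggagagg
Hoxb4: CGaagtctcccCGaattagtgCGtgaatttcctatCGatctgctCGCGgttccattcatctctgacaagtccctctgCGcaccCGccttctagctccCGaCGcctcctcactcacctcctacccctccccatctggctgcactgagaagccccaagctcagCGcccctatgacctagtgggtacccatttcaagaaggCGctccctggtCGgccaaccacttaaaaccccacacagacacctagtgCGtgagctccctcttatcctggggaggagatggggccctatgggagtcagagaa
Hoxb1: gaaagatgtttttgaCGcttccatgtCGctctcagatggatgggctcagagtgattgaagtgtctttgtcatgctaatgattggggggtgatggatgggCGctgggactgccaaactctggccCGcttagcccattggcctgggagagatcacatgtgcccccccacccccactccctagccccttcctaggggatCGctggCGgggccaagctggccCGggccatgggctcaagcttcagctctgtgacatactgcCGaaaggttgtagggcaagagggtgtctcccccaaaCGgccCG

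The number of CG dinucleotides was 13 in the Hoxb8 promoter, 14 in that of Hoxb4 and 10 in that of Hoxb1, against a median of 7 over 32851 promoters of the same length. At least as many were found in 37.9%, 36.3% and 43.5% of all promoters. The share of G and C was 42.3% for Hoxb8, 58% for Hoxb4 and 59.3% for Hoxb1. A search on both strands for the TATA motif TATAAA found 2 matches in the Hoxb8 promoter, both on the minus strand, with their first bases at -199 and -110 from the start. It found none in the promoters of Hoxb4 and Hoxb1, and 13.6% of all promoters hold a match. The motif CCAAT was at -57 in Hoxb8 on the plus strand and at -171 and -117 in Hoxb1 on the minus strand (37.4% of all promoters), and GGGCGG was at -227 in Hoxb8 alone of the 3 (35.7% of all promoters). TGATNNAT, which Hox and Pbx proteins can bind as a pair, had 1 match in Hoxb1 at -162 on the plus strand and 1 in Hoxb8 at -11 on the minus strand (8.85% of all promoters). The matches do not overlap one another, and the data do not show whether any is bound.

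The cluster also holds 2 microRNA genes, Mir196a-1 between Hoxb13 and Hoxb9 and Mir10a between Hoxb5 and Hoxb4. Capitals mark the seed, bases 2 to 8, through which a microRNA pairs with its targets. The mature sequences come from RefSeq on GRCm38.p6, at chr11:96265187-96265208 and chr11:96317186-96317208 on the plus strand. Mir196a-2 in the Hoxc cluster gives the same mature miR-196a-5p.
miR-196a-5p: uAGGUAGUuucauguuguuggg
miR-10a-5p: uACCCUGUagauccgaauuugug

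Hoxb8 mRNA is known as a target that miR-196 cuts, and the site in its 3' untranslated region is shown for that reason, at chr11:96284888-96284909 on the plus strand of GRCm38 (GENCODE M21). Of the 22 bases of miR-196a-5p, 21 can pair there, and no other of 21685 mouse 3' untranslated regions has as many. The capital marks the base that does not pair by the usual rules, written A18G against the full complement, counted from 1 at the 5' end of the site. The exact match to the miR-196 seed, actacct, was found in the regions of Hoxb7, Hoxb6 and Hoxb1 and in 5.93% of all regions. The match to the miR-10a seed, acagggt, was found in Hoxb3 alone of the 10 genes and in 12.1% of all regions.
Hoxb8 site of miR-196a-5p: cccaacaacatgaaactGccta
Hoxb7 seed match: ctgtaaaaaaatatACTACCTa
Hoxb6 seed match: tggaaggagcacatACTACCTa

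In the last 2 of these the capitals mark the seed match. They lie at chr11:96289784-96289805 and chr11:96301373-96301394 on the plus strand. The hairpin of Mir196a-1 had an entry, with 7 reads in Mll1-/- with TNF, 10 in the Mll1-/- control, 9 in wild type with TNF and 7 in the wild-type control. At that depth no difference between libraries was detectable, and reads from fragmented mRNA do not measure the mature microRNA.

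Hoxb9, at the trunk end of the matched genes, had the highest level of the cluster in all 4 libraries, while Hoxb5 was lowest in both Mll1-/- libraries and Hoxb1 in both wild-type ones. Summed over the 9 genes the level was 23.7 RPKM in Mll1-/- with TNF, 22.9 in the Mll1-/- control, 57.2 in wild type with TNF and 66.5 in the wild-type control. Hoxb9 alone made up 36% and 42.8% of that sum in the Mll1-/- libraries with and without TNF, against 55.5% and 52.9% in the wild-type ones. Of the 9 genes, 7 reached 1 RPKM in at least 1 library and were counted in comparisons. Hoxb6 and Hoxb3 did so only through the wild-type libraries, so counts and medians over the 7 describe the genes that passed. Just outside that limit, Hoxb5 reached 0.9997 RPKM in the wild-type control, while Hoxb4 at 1.10 in that library was inside it. Hoxb1 did not exceed 0.168 RPKM anywhere.

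**Figure D1:**
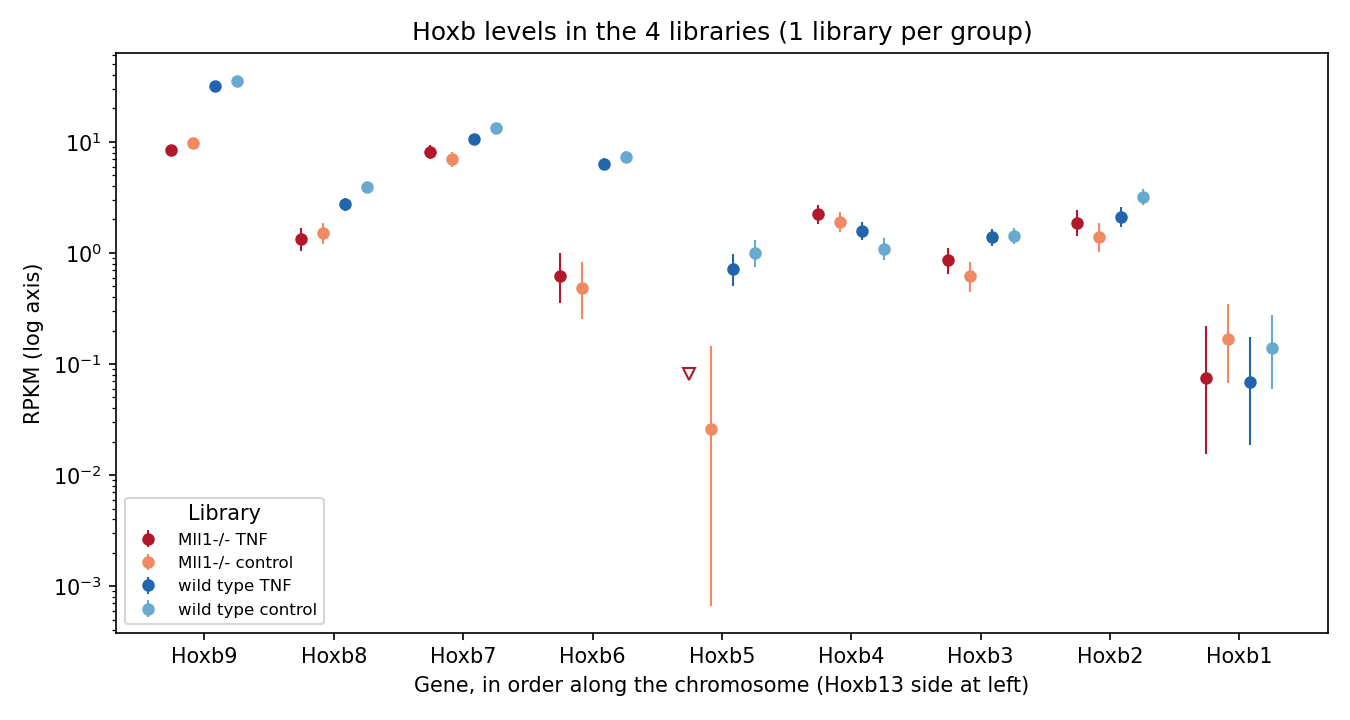
Level of each matched Hoxb gene (RPKM, log axis) in the 4 libraries, in order along the chromosome. Bars are exact Poisson 95% intervals of the reads and cover counting error only, and the open triangle is the level that 3 reads would give where Hoxb5 had none; the wild-type points of Hoxb9 and Hoxb6 lie above the Mll1-/- points, and those of Hoxb4 lie below them.

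The genes of the trunk end come first. Hoxb9, which acts with its paralogs in patterning the ribs, had 8.52 RPKM in Mll1-/- with TNF, 9.81 in the Mll1-/- control, 31.8 in wild type with TNF and 35.2 in the wild-type control. Both Mll1-/- values lay well below both wild-type values. Hoxb8, whose loss in mice causes excessive grooming, had 1.33 and 1.51 RPKM in Mll1-/- with TNF and control, against 2.74 and 3.89 in wild type with TNF and control, again with both Mll1-/- values under both wild-type values. Hoxb7, a factor of thoracic patterning, had 8.16 and 6.98 RPKM in Mll1-/- with TNF and control, against 10.5 and 13.3 in wild type with TNF and control. The Mll1-/- values were lower here too, but the gap was narrow. Hoxb6, which is expressed in lateral plate mesoderm and its derivatives, had 0.617 and 0.482 RPKM in Mll1-/- with TNF and control, against 6.36 and 7.33 in wild type with TNF and control. These rest on 16 and 13 reads against 239 and 273.

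In the middle of the cluster, Hoxb5 and Hoxb4 stand next to each other. Between the genotypes they differed in opposite directions, Hoxb4 by less than 2-fold. Hoxb5, which helps to place the shoulder girdle, had 0 and 1 reads in Mll1-/- with TNF and control, against 38 and 53 reads in wild type with TNF and control. Nearly all of its reads came from the wild-type libraries. Hoxb4, known for expanding blood stem cells, had 2.22 and 1.90 RPKM in Mll1-/- with TNF and control, against 1.59 and 1.10 in wild type with TNF and control. It was the 1 member of the 7 counted whose Mll1-/- values lay above its wild-type values.

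At the hindbrain end the levels were low. Hoxb3 had 0.856 and 0.617 RPKM in Mll1-/- with TNF and control, against 1.38 and 1.43 in wild type with TNF and control. It had 2 transcript entries, which gave nearly the same values and may share reads. Hoxb2, a target of Hoxb1 in the hindbrain, had 1.87 and 1.40 RPKM in Mll1-/- with TNF and control, against 2.10 and 3.18 in wild type with TNF and control. The wild-type values were the higher ones, but with TNF the libraries of the genotypes stood close together. Hoxb1, which sets the identity of a hindbrain segment, had 3 and 7 reads in Mll1-/- with TNF and control, against 4 and 8 reads in wild type with TNF and control. The opposite-strand genes Hoxb5os and Hoxb3os lie inside the cluster and had no entry. The labels do not mention strand, so reads of Hoxb genes and of any antisense transcript that overlaps them cannot be separated.

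The order of the levels differed between the genotypes. In the wild-type control it ran Hoxb9, Hoxb7, Hoxb6, Hoxb8, Hoxb2, Hoxb3, Hoxb4, Hoxb5, Hoxb1. Neighbours in this order whose counting interval of the ratio held 1 were Hoxb8 and Hoxb2 (ratio 1.22, interval 0.995 to 1.502), Hoxb3 and Hoxb4, and Hoxb4 and Hoxb5. In the Mll1-/- control it ran Hoxb9, Hoxb7, Hoxb4, Hoxb8, Hoxb2, Hoxb3, Hoxb6, Hoxb1, Hoxb5, with Hoxb4 above Hoxb8 and Hoxb6 below Hoxb3. Hoxb4 and Hoxb8 (1.26, interval 0.930 to 1.72), Hoxb8 and Hoxb2, Hoxb3 and Hoxb6, and Hoxb1 and Hoxb5 did not differ beyond counting error there. With TNF, Hoxb9 and Hoxb7 could not be told apart in Mll1-/- cells (8.52 and 8.16 RPKM, ratio 1.04, interval 0.881 to 1.24), whereas Hoxb9 was 3.02-fold above Hoxb7 in wild type with TNF (interval 2.71 to 3.38). A counting interval is an exact binomial 95% interval (Clopper-Pearson) of a ratio of reads. It covers the error of counting and nothing else, as the labels name no molecular identifiers that would separate molecules from their PCR copies.

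Without TNF, the Hoxb genes were mostly lower in the Mll1-/- library, and by the largest ratios for Hoxb5, Hoxb6 and Hoxb9. This comparison asks how the loss of Mll1 goes with the resting level of each gene. Genes were counted when the difference of log2(RPKM + 0.5) was 1 or more in size, a 2-fold difference on a scale that understates the change of low genes. Of the 7 Hoxb genes counted, 3 were lower and 0 higher: Hoxb6, Hoxb9 and Hoxb8. Over all 14386 genes and unnamed entries with 1 RPKM in at least 1 library, 7.99% were lower, 7.11% were higher and 15.1% were past this size in either direction. Of the 5 genes that did not need the wild-type libraries to pass, 2 were lower and 0 higher. The median log2 difference of the 7 genes was -0.95, and that of all genes was -0.07. In bulk RNA, fewer cells that express a gene and less RNA per cell cannot be told apart.

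Hoxb6 differed most among the 7, at 0.482 RPKM in the Mll1-/- control against 7.33 in the wild-type control, which is 15.2-fold lower (counting interval 8.75 to 28.9) with a log2 difference of -2.99. Hoxb9 was 3.59-fold lower (interval 3.27 to 3.94, log2 difference -1.79), from 534 reads against 2644. Hoxb8 was 2.58-fold lower (interval 2.01 to 3.35, -1.13). Between Hoxb9 and Hoxb6, each past the size rule, Hoxb7 was 1.90-fold lower (interval 1.60 to 2.27) and stayed within it at -0.88. Hoxb2 (2.27-fold lower, -0.95) and Hoxb3 (2.31-fold lower, -0.79) were also within it, since the added 0.5 RPKM weighs on low genes. Hoxb4 was 1.74-fold higher (interval 1.28 to 2.37, 0.59). Hoxb5, under the filter, had 1 read against 53, a ratio of 38.4-fold lower with an interval of 6.60 to 1544. Intervals lay below 1 for 6 of the 7 and above 1 for 1, beside 42.5% and 33.6% of all genes (76.2% in either direction).

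With TNF the same direction was seen for each of the 7 genes as without it, here between the other two libraries. Of the 7 genes 2 were lower past the size rule and 0 higher, beside 4.5% and 6.71% of all genes (11.2% in either direction), with a median of -0.47 against -0.05 over all genes. Without Hoxb6 and Hoxb3, 1 of 5 was lower. Hoxb6 was 10.3-fold lower (interval 6.22 to 18.3, log2 difference -2.62) and Hoxb9 was 3.73-fold lower (interval 3.37 to 4.13, -1.84). Hoxb8 was 2.06-fold lower (interval 1.56 to 2.75) and missed the size rule at -0.82. Hoxb7 was 1.29-fold lower (interval 1.08 to 1.54, -0.35) and Hoxb3 1.61-fold lower (interval 1.17 to 2.25, -0.47). Intervals lay below 1 for 5 of the 7 and above 1 for 1, beside 38.8% and 30.8% of all genes (69.6% in either direction). For Hoxb2 the interval held 1 (1.12-fold lower, interval 0.804 to 1.58, -0.13). Hoxb4 was 1.40-fold higher (interval 1.07 to 1.83, 0.38), and with the shorter length that also gave it whole reads the interval held 1 (0.948 to 2.06). Hoxb5 had 0 reads in Mll1-/- with TNF against 38 in wild type with TNF. With 0 taken as 3 reads it was 8.74-fold lower, while the 95% counting interval began at 6.77-fold lower.

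**Figure D2:**
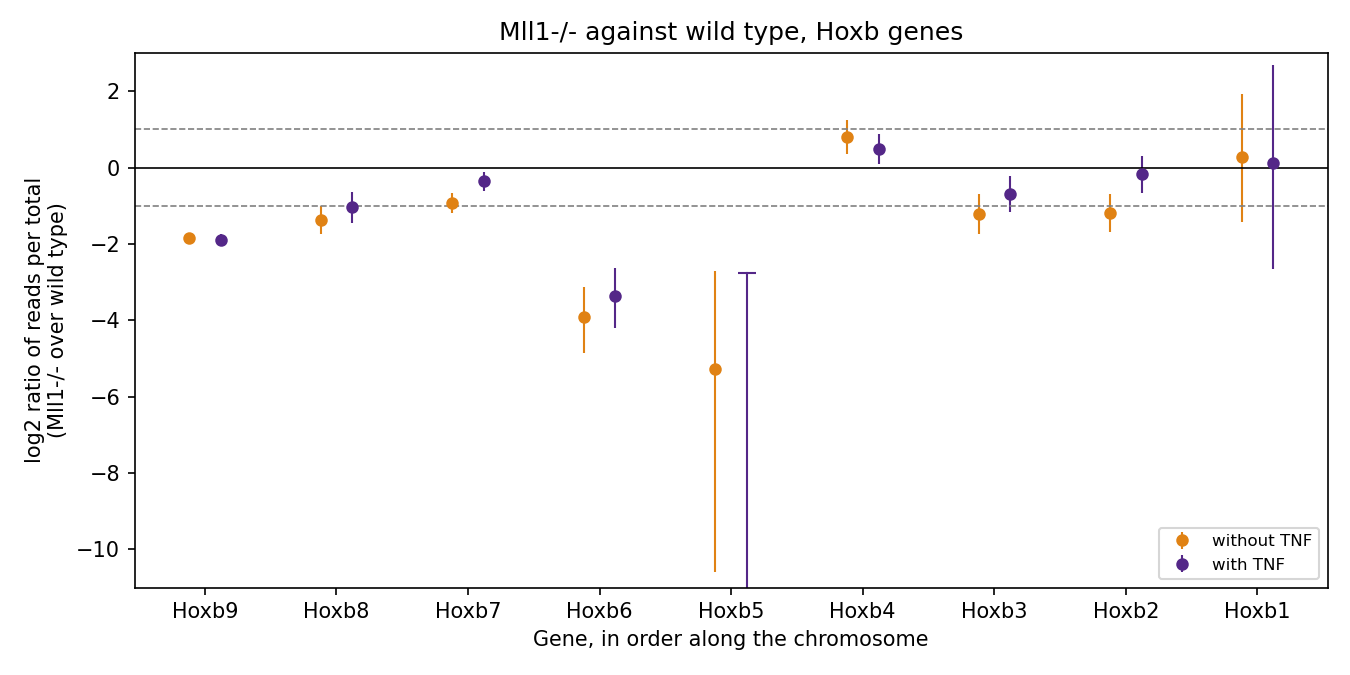
Ratio of Mll1-/- over wild type (log2 of reads per library total) for each Hoxb gene along the chromosome, without and with TNF. Bars are 95% counting intervals, a bar without a point gives the range for Hoxb5 with TNF, where the Mll1-/- library had 0 reads, and dashed lines mark a 2-fold difference; Hoxb6 and Hoxb5 lie lowest, and Hoxb4 is above 0 in both comparisons.

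Other features of the libraries moved with the genotype. Of the 5 neural markers with an entry 3 were counted, and all 3 (Nes, Tubb3 and Map2) were higher in Mll1-/- cells without and with TNF, beside 7.11% and 6.71% of all genes. The summed neural markers were 91.8 and 103.8 RPKM in Mll1-/- with TNF and control, against 14.1 and 14.4 in wild type with TNF and control. Of 9 fibroblast markers 6 were higher and 1 lower without TNF, beside 7.11% and 7.99% of all genes. With TNF 6 of them were higher and 0 lower, beside 6.71% and 4.5% of all genes. Map2, and Dcn and Col3a1 among the fibroblast markers, reached 1 RPKM only in Mll1-/- libraries. They entered these counts only through the group where they were higher. Of the 2 pluripotency markers Nanog was counted and was lower (-1.42 without TNF, -1.19 with TNF). Pou5f1, the other, was under the filter, with 0 RPKM in both Mll1-/- libraries and in wild type with TNF. Of the muscle markers 1 of 2 counted, Des, was higher (1.26 and 1.24). The part of all these markers in the Hoxb differences was not tested. The Mll1-/- control also had lower values for short transcripts, with a running median of -0.31 at the length of Hoxb7 (1269 bases) and of -0.02 at that of Hoxb9 (2711 bases). Taken off, this trend left Hoxb9 at -1.77, Hoxb8 at -1.10, Hoxb7 at -0.57 and Hoxb6 at -2.69 without TNF.

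Values were also taken for the genes around the cluster. Of the 10 nearest named genes with an entry, 5 on each side, 8 were counted. Their log2 differences lay between -1.06 and 0.23 without TNF and between -0.31 and 0.10 with TNF, with medians of -0.18 and -0.21. Atp5g1, a subunit gene of the mitochondrial ATP synthase on the Hoxb13 side, was the 1 of 8 past the size rule, at -1.06 without TNF, beside 15.1% of all genes in either direction, and it was at -0.27 with TNF. Gm11517, a transcribed pseudogene on the Hoxb1 side, was at -0.95 without TNF, the same as Hoxb2, and at -0.19 with TNF. Skap1, the nearest beyond Hoxb1, had 0.339 and 0.395 RPKM in Mll1-/- with TNF and control, against 0.634 and 0.674 in wild type with TNF and control. Ttll6, the nearest beyond Hoxb13, had at most 2 reads in any library.

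TNF itself went with small differences in Hoxb RNA. The question is whether the inflammatory signal reaches these positional genes within 4 hr. No member was past the size rule: 0 of 7 in Mll1-/- cells, where 0.848% of all genes were (0.688% higher and 0.16% lower), and 0 of 7 in wild type, where 0.577% were (0.521% higher and 0.0556% lower). The median log2 difference was 0.19 in Mll1-/- cells and -0.19 in wild type, beside 0.02 and -0.02 over all genes.

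In Mll1-/- cells the counting interval lay below 1 for 1 of the 7 and above it for 0, beside 22.2% and 26.5% of all genes (48.7% in either direction). This was Hoxb9, at 8.52 RPKM with TNF against 9.81 in the control (read ratio 0.869, interval 0.764 to 0.987). In wild-type cells 4 of the 7 had intervals below 1 and 1 above it, beside 19.8% and 15.8% of all genes (35.6% in either direction). Hoxb2 had the lowest ratio, at 2.10 RPKM with TNF against 3.18 in the control (0.661, interval 0.505 to 0.861). Hoxb8 followed (0.706, interval 0.587 to 0.848), then Hoxb7 (0.792, interval 0.689 to 0.909) and Hoxb9 (0.903, interval 0.854 to 0.955). Hoxb4 was higher with TNF, at 1.59 RPKM against 1.10 (1.45, interval 1.08 to 1.958), an interval that held 1 with the shorter length (0.947 to 2.24). The intervals do not include variation between cultures, which a single library cannot show.

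**Figure D3:**
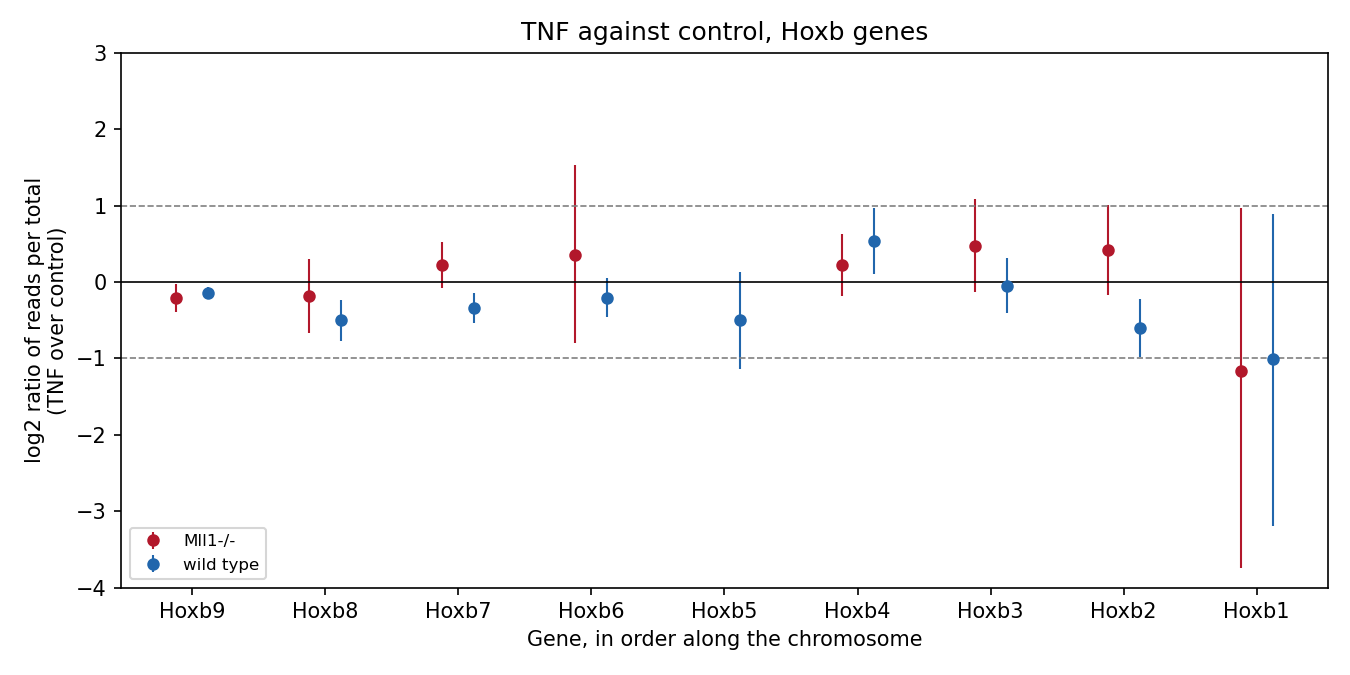
Ratio of TNF over control (log2 of reads per library total) for each Hoxb gene in Mll1-/- and in wild-type cells, with 95% counting intervals and dashed lines at a 2-fold difference. Hoxb5 in Mll1-/- cells is left out because it had 1 read in the 2 libraries together; the points of the 7 genes counted lie between the dashed lines.

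Set beside the other clusters, the Hoxb genes held the largest part of the RNA of Hox genes with an entry in every library. They made up 48.5% of the summed Hox RPKM in Mll1-/- with TNF, 45.7% in the Mll1-/- control, 57% in wild type with TNF and 54.9% in the wild-type control. The Hoxc genes made up 4.68% and 3.89% in Mll1-/- with TNF and control, against 31.7% and 34.4% in wild type with TNF and control. Hoxd genes were at 30.3% and 32.6% in Mll1-/- cells, against 0.132% and 0.183% in wild type. In the comparison without TNF, 5 of 5 counted Hoxc genes were lower (median -3.06) and 2 of 2 counted Hoxd genes were higher (median 3.54). Of 8 Hoxa genes 3 were lower and 1 higher (median 0.01). Over all genes 7.99% were lower, 7.11% higher and 15.1% either. Of the lower genes, Hoxc5, Hoxc8, Hoxc9, Hoxc10, Hoxa9 and Hoxa10 reached 1 RPKM only in wild-type libraries. The higher ones, Hoxd8, Hoxd9 and Hoxa4, reached it only in Mll1-/- libraries. These counts and medians therefore describe the genes that passed. The shares are those of the genes with an entry, 9 of 10 listed Hoxb, 9 of 11 Hoxa, 7 of 9 Hoxc and 4 of 9 Hoxd genes. Genes without an entry could not be judged, and they could change the shares and their ranking.

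**Figure D4:**
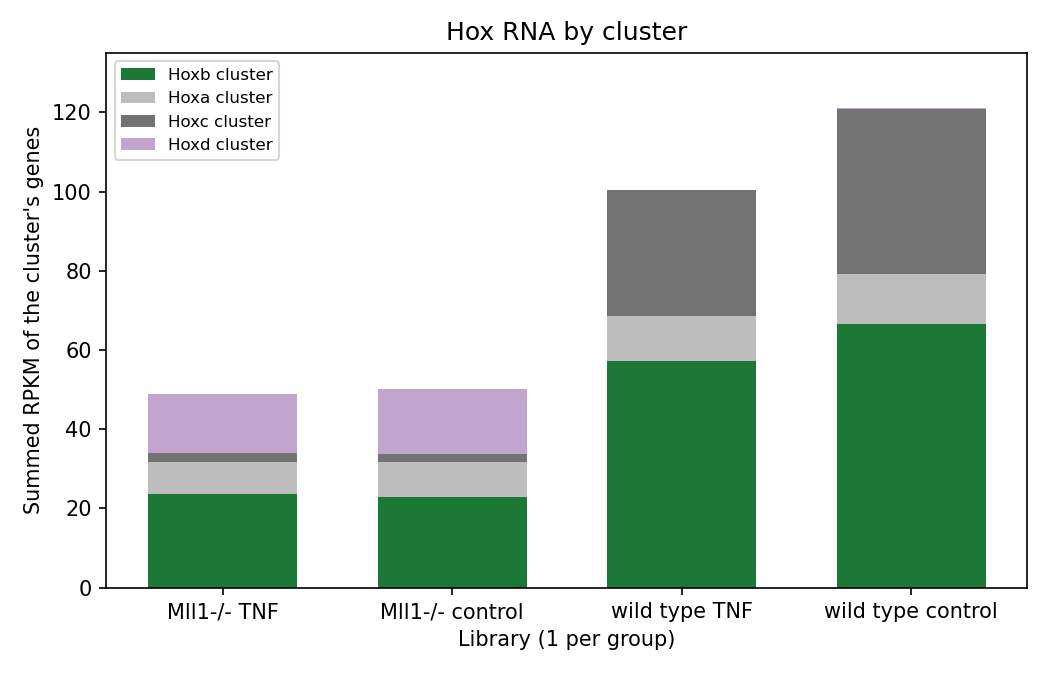
Summed RPKM of the Hox genes with an entry, stacked by cluster, in each of the 4 libraries. The Hoxb part is 23.7 and 22.9 RPKM in the Mll1-/- libraries with TNF and control, and 57.2 and 66.5 in the wild-type libraries with TNF and control.

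Paralogs are the genes at the same place in different clusters, and they can act in place of one another. In paralog group 9 the summed level was 11.5 and 13.02 RPKM in Mll1-/- with TNF and control, against 42.2 and 48.0 in wild type with TNF and control. Hoxb9 held between 73.2% and 75.3% of it in all 4 libraries, although the rest was mostly Hoxd9 in Mll1-/- cells and mostly Hoxc9 in wild type. Hoxa9 had 0 reads in both Mll1-/- libraries. In group 8 the sum was 13.3 and 14.6 RPKM in Mll1-/- with TNF and control, against 9.56 and 15.0 in wild type with TNF and control. The part of Hoxb8 in it was 10.1% and 10.3% in Mll1-/- cells, against 28.7% and 26% in wild type, with Hoxd8 in the place that Hoxc8 had in wild type. In group 6 the sum was 3.002 and 2.58 RPKM in Mll1-/- with TNF and control, against 18.8 and 22.5 in wild type, since Hoxc6 was low together with Hoxb6. Group 4 was the reverse, with 3.96 and 3.81 RPKM in Mll1-/- with TNF and control, against 2.59 and 2.23 in wild type, and Hoxa4 was higher too, at 1.25 and 1.40 RPKM in Mll1-/- with TNF and control, against 0.351 and 0.425 in wild type with TNF and control.

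Genes of the factors that work with or on Hox genes were counted from lists. Of 7 counted TALE cofactors, homeodomain proteins that bind DNA together with Hox proteins, 1 was higher and 0 lower without TNF, namely Meis1 (log2 difference 1.01). With TNF 0 of the 7 were past the size rule. Of 7 counted regulators of Hox transcription, mostly of the retinoic acid pathway, 0 were past it in either comparison. The trithorax list had 0 of 10 past it in either comparison. Of 16 Polycomb genes 1 was higher, Phf19, a Polycomb accessory protein, at 10.0 and 10.3 RPKM in Mll1-/- with TNF and control, against 2.23 and 1.95 in wild type with TNF and control. Geminin, whose product can bind Hox proteins, was at -0.53 without TNF and -0.30 with TNF. These lists were counted against the same backgrounds of 15.1% and 11.2% in either direction.

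For each of the 7 genes with a mean of 1 RPKM or more, the named genes most like it were sought among 10656 others, by the Euclidean distance between log2(RPKM + 0.5) profiles centred on their own mean over the 4 libraries. The nearest to Hoxb9 were Phf7 (distance 0.066), Ccdc80 (0.074) and Grb10 (0.096). Nearest to Hoxb6 were Fndc4 (0.096), Pdf (0.111) and Hoxc6 (0.119), the 1 Hox gene among all those named. Tuft1 (0.028) was nearest to Hoxb8, Snapc5 (0.035) to Hoxb7, Slc4a7 (0.052) to Hoxb4, Tefm (0.018) to Hoxb3 and D4Ertd617e (0.066) to Hoxb2. With 4 libraries a profile has few degrees of freedom, and many genes come close to any given one.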

How the data were processed

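RNA from 4 libraries was sequenced after mRNA purification, fragmentation and adapter ligation, per the labels' protocols. TopHat and DESeq are listed, per the submitters' processing notes, without version or role. Build, annotation and counting program were not given in the sources used here. RPKM is the unit the authors deposited, per the file headers, for 27344 RefSeq transcript entries.

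Entries were named through their accession, 20849 by a RefSeq gene table (GRCm38.p6) and 102 by GENCODE M21, and 6393 stayed unnamed. Each library total was inferred as the value that most low entries gave from their RPKM, GENCODE length and a small whole number of reads. All read counts and intervals rest on these totals. Whole reads were recovered from the shortest transcript length that makes every library's value a whole number of reads within 0.0001, which worked for 27341 entries (99.99%). For 1227 entries, Hoxb4 among the Hoxb genes, a multiple of that length was taken because it matched GENCODE's. The lengths used for the 9 Hoxb genes lay within 6.27% of GENCODE's, an agreement that for Hoxb4 is partly built in. Recovered reads summed to between 1.667 and 1.768 times the library totals over all entries, and to between 1.382 and 1.491 times with 1 entry per gene, so entries may share reads and counting intervals may be too narrow. The recovery of reads, the size rule and the intervals were tried on simulated Poisson reads. There the library totals were taken as known, recovery was scored up to a common divisor, and no reads were shared between entries. The simulation therefore does not check the totals, the multiple taken for Hoxb4 or the effect of shared reads. All other Hox and cofactor lists came from general knowledge, and the members and lists were chosen with earlier results of these data known. Named genes are the members, their paralogs, flanking genes, the nearest profiles and the extremes of each list. Alternatives covered pseudocounts of 0.1 and 1, filters, scalings, the length trend and the choice of entry, and the closing section gives their effect. Python 3.11.15, numpy 2.4.6, scipy 1.17.1, pandas 2.3.3 and matplotlib 3.10.9 were used.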

Additional observations from a re-analysis of the deposited data

Results flagged for a closer look

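For 4 of the 7 Hoxb genes counted, the log2 difference between TNF and control was above 0 in Mll1-/- cells and below 0 in wild type, as it was for 29.9% of all genes, and 52.1% of all genes had opposite signs in either arrangement. The difference of the log2(RPKM + 0.5) responses, Mll1-/- minus wild type, was 0.82 for Hoxb2, 0.53 for Hoxb7, 0.38 for Hoxb6 and 0.31 for Hoxb3. In Mll1-/- cells the counting interval of the TNF ratio held 1 for all 4, and in wild type it held 1 for Hoxb6 and Hoxb3. For the difference of the log2 read ratios, a 95% counting interval by a normal approximation excluded 0 for Hoxb2 (0.34 to 1.68) and Hoxb7 (0.21 to 0.91). It held 0 for Hoxb6 (-0.52 to 1.65) and Hoxb3 (-0.16 to 1.19). In all it excluded 0 for 2 of the 7, beside 45.9% of the 14198 genes with reads in every library. The interval covers counting error only, and with 1 library in each group the difference between the genotypes was not tested. In Mll1-/- cells the TNF ratio moved with transcript length, and with that trend removed Hoxb7 stood at 0.03 in Mll1-/- cells and -0.26 in wild type, and Hoxb2 at 0.20 in Mll1-/- cells and -0.44 in wild type.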

How the results depend on the processing

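All 7 counted Hoxb genes kept their direction between the genotypes, without and with TNF, under each of the 11 alternatives, and Hoxb6 and Hoxb9 stayed past the size rule in each. Without TNF, 5 genes in place of 3 were lower past it with a pseudocount of 0.1, because less is added to low levels. With none, an alternative chosen after seeing the data, 5 were lower without TNF. With TNF, 3 in place of 2 were lower with none, as Hoxb8 then stood at -1.04. Without the filter on low values, 4 of 9 were lower without TNF and 3 of 9 with TNF. Without the 20 most abundant genes, the median of all genes shifted by 0.279 without TNF and 0.103 with TNF. The summed Hoxb level was then 26.0 RPKM in the Mll1-/- control, 53.8 in wild type with TNF and 61.4 in the wild-type control, and Hoxb8 was no longer past the size rule without TNF (-0.89), as with a pseudocount of 1 (-0.96). For TNF against control, 0 genes were past it under each alternative. No paired analysis was possible because each group is 1 library. With the shortest length that gives whole reads, also chosen after seeing the data, Hoxb4 kept its ratios, but the intervals held 1 with TNF between the genotypes and for TNF in wild type. Depth limits Hoxb1 and Hoxb5 most.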
